A study of Mus musculus with 6 samples.

Results

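The immediate early transcription factors are genes that cells switch on within minutes of a stimulus, without first making new protein. Of 10 genes chosen by name, 9 had a row of their own among 31097 rows of the deposited table: Fos, Fosb, Fosl1, Fosl2, Jun, Junb, Egr1, Nr4a1 and Ier3. Myc was not analysed here. A gene was taken to be in a row when its symbol stood in that row's name field, and none of the 9 rows carried a second name. RNA was sequenced from 3T3-F442A cells, a mouse preadipocyte line that the labels call an adipocyte line, in RPMI medium with 10% FBS. The 3 WT libraries carry intact SWELL1, and the 3 SWELL1 KO libraries come from cells of the same parental line in which SWELL1 (gene symbol Lrrc8a, which encodes a part of the anion channel that opens when cells swell) was knocked out with CRISPR/Cas9. The labels call the libraries of a group biological replicates, but give neither the number of KO clones nor the time since the last change of medium or serum, and no differentiation step. The KO sample names also carry the mark D3, which is not explained, so genotype, clone and that mark cannot be told apart, and a p-value here speaks for the spread among these 6 libraries.

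Fos, Fosb, Fosl1 and Fosl2 encode basic leucine zipper proteins that bind DNA chiefly as partners of a Jun protein, and the pair is the transcription factor AP-1. Jun proteins can also pair with each other. Serum, growth factors and stress raise these genes through MAP kinases, which act on the serum response factor SRF, its ETS partners and the CREB and Jun proteins already bound at their promoters. The messages are short-lived, since AU-rich stretches in their 3′ ends recruit decay proteins such as ZFP36. Fosl1 and Fosl2, which lack the strong activation domain of Fos, are known to be kept at a steady level in growing fibroblasts. Egr1 encodes a zinc finger factor of GC-rich sites, Nr4a1 an orphan nuclear receptor that is switched by its own level, and Ier3 a small protein that affects cell survival and is grouped with these factors for its rapid induction rather than for DNA binding.

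Promoters of 7 of the 9 genes, Fosl1 not among them, were read from the RefSeq table of build GRCm38.p6. Each window held 300 bases, from upstream of the transcript start to just past it, so elements farther upstream could not be seen. Of the 7 motifs listed for this search (the AP-1 element TGACTCA, the CREB element TGACGTCA, TATAAA, the letters of a TATA box, the E-box CACGTG bound by MYC, the NR4A element AAAGGTCA, the EGR element GCGTGGGCG and the CArG box bound by SRF), searched on both strands, TATAAA alone was present, in Fos at position -33 and in Junb at position 1, on the transcript start itself, against 13.6% of all 32851 promoters. More motifs, 4 in all, were added after the promoters had been read, and the first of them can overlap the next. TGACNTCA was in the Jun window (8.83% of all promoters) and TGACGT in the Fos window (7.51%). TGCGTCA was in the windows of Fosb and Nr4a1 (2.12% of all), and GCGGGGGCG in those of Fosb, Fosl2 and Nr4a1 (2.91%). A match describes letters in the window and is not a shown binding site. The windows of Fos, Fosb and Nr4a1, whose RNA was lower in KO, and of Jun, whose RNA was higher, are given 5′ to 3′ with the matches in capitals. Capitals mark TGACGT and TATAAA in Fos, the reverse complement of TGCGTCA followed by GCGGGGGCG in Fosb, TGACNTCA in Jun, and 4 copies of TGCGTCA with the reverse complement of GCGGGGGCG in Nr4a1.
Fos (chr12:85473640-85473939, plus strand): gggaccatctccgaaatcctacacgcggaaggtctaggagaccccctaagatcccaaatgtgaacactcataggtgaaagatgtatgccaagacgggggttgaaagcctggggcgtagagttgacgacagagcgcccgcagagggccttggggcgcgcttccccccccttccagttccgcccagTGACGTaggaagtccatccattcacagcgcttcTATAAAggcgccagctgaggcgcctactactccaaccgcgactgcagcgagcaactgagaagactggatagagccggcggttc
Fosb (chr7:19309996-19310295, minus strand): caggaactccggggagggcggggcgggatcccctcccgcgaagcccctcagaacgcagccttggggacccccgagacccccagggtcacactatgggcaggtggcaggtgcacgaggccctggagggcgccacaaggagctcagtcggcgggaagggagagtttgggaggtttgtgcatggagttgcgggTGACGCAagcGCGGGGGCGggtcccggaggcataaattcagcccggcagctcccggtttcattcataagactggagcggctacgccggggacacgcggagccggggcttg
Jun (chr4:95052173-95052472, minus strand): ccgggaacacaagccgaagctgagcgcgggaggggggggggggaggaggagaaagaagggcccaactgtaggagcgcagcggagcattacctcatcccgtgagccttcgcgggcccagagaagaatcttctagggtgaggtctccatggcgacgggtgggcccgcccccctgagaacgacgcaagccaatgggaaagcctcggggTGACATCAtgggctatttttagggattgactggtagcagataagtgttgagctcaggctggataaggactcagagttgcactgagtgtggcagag
Nr4a1 (chr15:101266596-101266895, plus strand): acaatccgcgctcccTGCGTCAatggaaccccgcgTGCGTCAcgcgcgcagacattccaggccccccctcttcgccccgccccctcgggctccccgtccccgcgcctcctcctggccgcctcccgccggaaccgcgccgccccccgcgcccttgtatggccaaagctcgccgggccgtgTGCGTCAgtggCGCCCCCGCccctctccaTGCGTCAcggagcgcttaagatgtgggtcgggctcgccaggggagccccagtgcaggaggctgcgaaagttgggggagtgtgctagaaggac

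The AU-rich element was read in the 3′ untranslated regions of GENCODE M21 transcripts (GRCm38), taking for each gene the transcript with the longest coding sequence. The pentamer ATTTA occurred 8.16 times per kilobase in Ier3, 5.52 in Nr4a1, 4.91 in Fos, 4.12 in Junb and 3.24 in Jun, against a median of 1.14 over 20481 protein-coding genes. Fosl2, Fosl1 and Fosb held 1.72, 1.57 and 0.466 per kilobase. Jun, the single member higher in KO, lay among the denser ones. This count was chosen after the values were seen. The longer element TTATTTATT, held by 6.96% of genes, occurred in Fos and Fosl2 alone. Their 3′ untranslated regions hold 815 and 4653 bases, against a median of 808, and that share is not adjusted for length. Each site is shown with its flanks, the element in capitals.
Fos (chr12:85477103-85477131, plus strand): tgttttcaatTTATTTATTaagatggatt
Fosl2 (chr5:32156871-32156899, plus strand): atttattttaTTATTTATTttaaatgttt

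WT libraries held an estimated 17.1 to 20.8 M fragments, and KO libraries 18.4 to 25.9 M. Values are taken as FPKM, fragments scaled to transcript length and to library size, which allows levels of different genes to be compared. Lrrc8a shared its row with Nup188 and Phyhd1 (32.5, 35.0 and 33.2 FPKM in WT, 28.8, 28.0 and 27.3 in KO), so the row does not check the knockout. Adipocyte markers did not bear out a mature fat cell: Lep was at 0 in all libraries, Adipoq was at 1.87 FPKM or less, and the summed level of 7 markers was 137.2 to 195.6 FPKM in WT and 2.71 to 4.63 in KO, nearly all of it Fabp4. The 7 fibroblast and preadipocyte markers summed to 4864.5 to 5452.8 FPKM in WT and 3683.2 to 3859.1 in KO. Of them 5 were lower in KO and 2, Pdgfrb and Dcn, were higher. The 4 smooth muscle markers with a row summed to 85.9 to 102.0 FPKM in WT and 2.03 to 3.23 in KO, the WT sum being mostly Acta2. Sums of the 4 macrophage, 4 endothelial and 4 epithelial markers with a row stayed at 2.45 FPKM or less in every library, with Csf1r and Epcam at 0 throughout. Acta2, Fabp4 and some of the other markers moved with the groups, and their part in the results below was not tested. In bulk RNA, fewer cells with a message and less message per cell cannot be told apart.

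Of the 9 chosen genes, Jun alone was not lower in KO. All 9 passed the filter of a mean of at least 0.5 FPKM, 8 fell in KO (Fos, Fosb, Fosl1, Fosl2, Junb, Egr1, Nr4a1 and Ier3) and 1 rose (Jun), by limma on log2(FPKM + 0.5) with an adjusted p under 0.05 over all 10515 tested rows. Of all tested rows 65.2% were called, 36.7% lower and 28.5% higher, and the 2 groups did not overlap in 71.8%, so a call by itself says little in this comparison. The size of change adds more: Nr4a1 and Fosl2 fell by more than 1 log2 unit, and no member rose by as much. For the low genes Fos and Fosb this line depends on the value added before taking logs. With 0.1 added in place of 0.5 they fell by more than 1 log2 unit too (-1.2 and -1.27). Of all tested rows 9.51% were both called and lower by at least 1 log2 unit, and 7.52% were both called and higher by at least that. The median log2 fold change of the 9 genes was -0.88, beside -0.07 over all tested rows. Each log2 fold change is KO minus WT of log2(FPKM + 0.5), and is smaller than the true change for genes of low level.

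**Figure D1:**
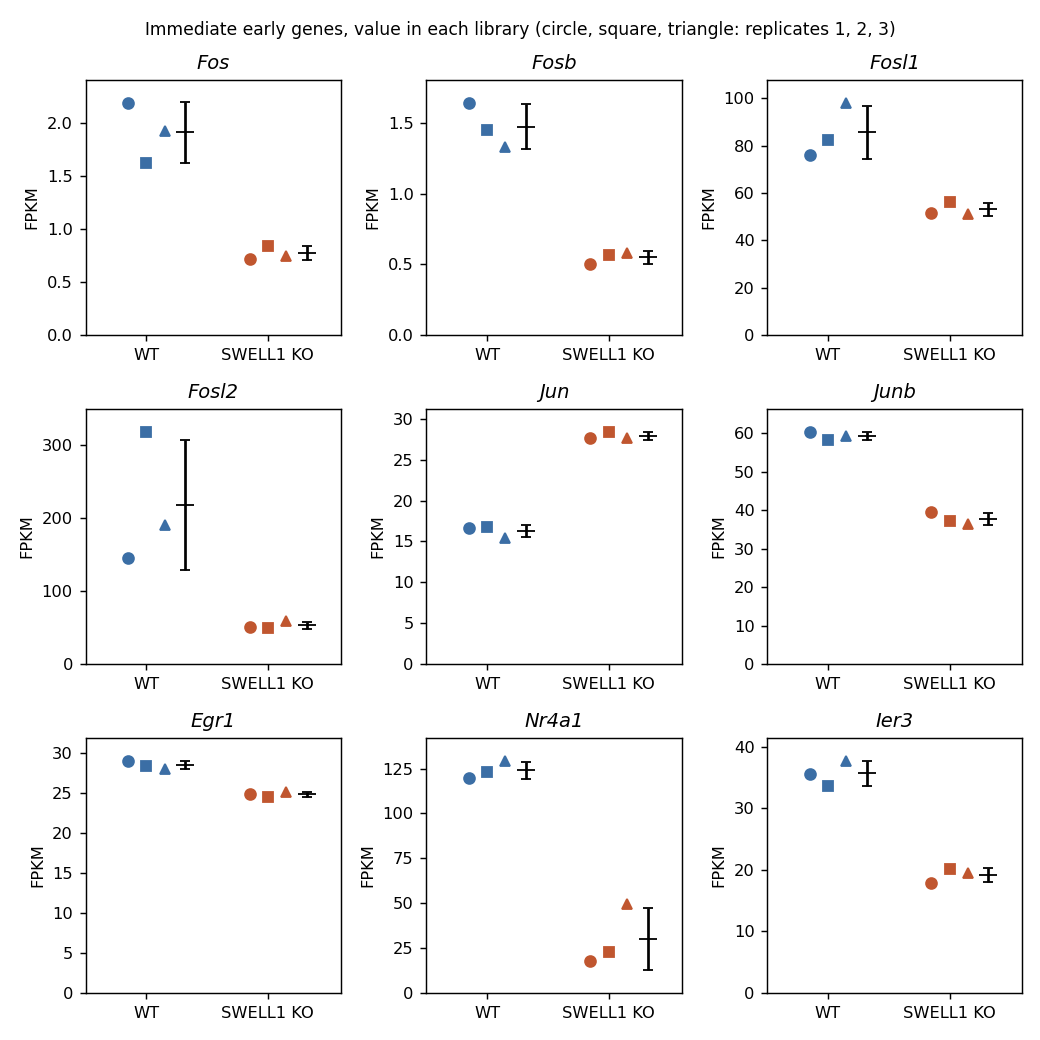
FPKM (linear axes from 0) of each immediate early gene in each of the 6 libraries, with the mean and SD of each group of 3 in black. Groups do not overlap in any panel; the KO libraries lie lower except for Jun, and the widest groups are WT for Fosl2 and KO for Nr4a1.

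Fos, on chromosome 12 (85473890 to 85477273, plus strand, GRCm38), the prototype of the family, was low in every library. WT replicates 1, 2 and 3, in that order as everywhere here, gave 2.19, 1.62 and 1.93 FPKM, against 0.717, 0.844 and 0.749 in KO. Every KO library lay below every WT library, and the mean fell 2.49-fold (log2 fold change -0.92, SE 0.12, adjusted p = 0.000974). If read over the longest transcript, these values rest on about 29 to 85 fragments a library. Fosb (chromosome 7, 19302696 to 19310051, minus strand), whose message also gives a shortened, more stable protein in the brain, was at 1.64, 1.45 and 1.33 FPKM across WT libraries, against 0.499, 0.566 and 0.582 in KO. The groups were separate here too, with a 2.68-fold lower KO mean (log2 fold change -0.91, SE 0.11, adjusted p = 0.000652). The low level of both genes is a measured fact of these cultures and limits the precision of each value, at about 36 to 106 fragments for Fosb.

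Fosl1 and Fosl2, which encode FRA1 and FRA2, carried nearly all Fos family message. Fosl1 (chromosome 19, 5447547 to 5455946, plus strand) was at 76.2, 82.5 and 98.0 FPKM across WT libraries, against 51.6, 56.3 and 51.3 in KO. It fell 1.61-fold (log2 fold change -0.68, SE 0.10, adjusted p = 0.00157), with WT libraries more spread than KO libraries. Exons of Fosl1 share 1163 bases with Ccdc85b on the other strand, which was not analysed here, and reads of the pair cannot be told apart without strand. Fosl2 (chromosome 5, 32135801 to 32157842, plus strand) was at 145.6, 318.2 and 190.3 FPKM across WT libraries, against 51.0, 49.1 and 58.7 in KO. The 3 KO libraries lay close together, whereas WT replicate 2 stood 2.18 times as high as WT replicate 1. Even the lowest WT value was above every KO value, and the mean fell 4.12-fold (log2 fold change -1.96, SE 0.28, adjusted p = 0.00145), or 3.17-fold without WT replicate 2.

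Among the Jun genes, which supply the chief AP-1 partner of Fos proteins, Jun and Junb moved in opposite directions. Jun (chromosome 4, 95049034 to 95052222, minus strand), a strong activator, was at 16.6, 16.7 and 15.4 FPKM across WT libraries, against 27.6, 28.4 and 27.7 in KO. It was the single member that rose, 1.72-fold, and its replicates were tight in both groups (log2 fold change 0.77, SE 0.0463, adjusted p = 4.36e-05). Junb (chromosome 8, 84974484 to 84978718, minus strand), a weaker activator that can restrain Jun, was at 60.3, 58.1 and 59.1 FPKM across WT libraries, against 39.5, 37.2 and 36.3 in KO. It fell 1.57-fold (log2 fold change -0.65, SE 0.0434, adjusted p = 6.4e-05). Exons of Junb share 173 bases with Prdx2 on the other strand, and Prdx2 lay higher in every KO library (164.6, 168.4 and 166.1 FPKM in WT, 235.0, 344.0 and 291.1 in KO), the direction opposite to that of Junb. Jun shares 232 bases with the antisense gene Junos, not analysed here. Junb stood 3.49 to 3.85 times as high as Jun in WT libraries and 1.31 to 1.43 times as high in KO libraries.

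Jund, the third Jun gene and no member of the chosen set, was at 12.3, 11.0 and 12.3 FPKM in WT and 26.4, 22.7 and 22.5 in KO (2.02-fold higher, log2 fold change 0.98, adjusted p = 0.000145). It shares 877 exon bases with the antisense gene Gm11175, which lay higher in every KO library as well (26.0, 26.3 and 53.1 FPKM in WT, 69.9, 55.4 and 59.6 in KO), so the source of its reads is uncertain. With Jund counted, the summed level of the Jun family was 85.8 to 89.2 FPKM in WT and 86.5 to 93.5 in KO, and these ranges overlapped. That overlap depends on Jund, which gave 12.8% to 14.2% of the sum in WT and 25.7% to 28.2% in KO. Jun and Junb together, without Jund, lay lower in every KO library than in any WT library. The makeup of the full sum did differ: Junb gave 67.6% to 68.1% of the sum in WT libraries and 42.0% to 42.2% in KO libraries, while Jun gave 17.7% to 19.4% and 29.5% to 32.1%. The Fos family sum was 225.6, 403.7 and 291.6 FPKM in WT and 103.9, 106.9 and 111.3 in KO. Fosl2 gave 64.5% to 78.8% of that sum in WT and 46.0% to 52.7% in KO, and Fosl1 20.4% to 33.8% and 46.1% to 52.7%. Fos and Fosb each gave under 1% in every library. Summed Fos family message was 2.53, 4.71 and 3.36 times summed Jun family message, Jund included, in WT and 1.11, 1.21 and 1.29 times in KO. Shares were described and not tested.

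**Figure D2:**
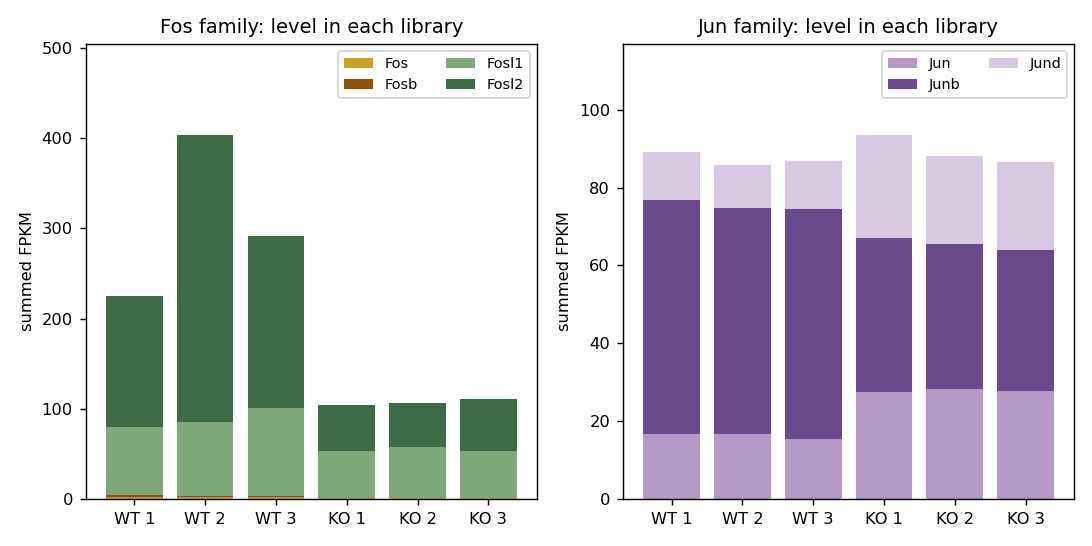
Stacked FPKM of the Fos family (left) and Jun family (right) in each library, on linear axes from 0. Fos family sums are 225.6 to 403.7 FPKM in WT and 103.9 to 111.3 in KO. Jun family sums overlap between groups only with Jund counted, and Junb takes a smaller share of them in KO.

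Egr1 (chromosome 18), with 1.64 ATTTA pentamers per kilobase of 3′ untranslated region, changed least. It was at 29, 28.3 and 28.0 FPKM across WT libraries, against 24.9, 24.5 and 25.1 in KO, groups that were separate but near each other (1.15-fold lower, log2 fold change -0.19, SE 0.0347, adjusted p = 0.00363 by limma). Quantile normalization ended that call, at a log2 fold change of -0.06 (limma adjusted p = 0.23). Nr4a1 (chromosome 15, 101254269 to 101274795, plus strand) went from 119.8, 123.1 and 129.4 FPKM in WT to 17.7, 22.7 and 49.7 in KO. WT libraries agreed closely, and KO replicate 3 stood more than 2 times above both other KO libraries without reaching the WT level. The mean fell 4.13-fold (log2 fold change -2.17, SE 0.37, adjusted p = 0.00291), and 6.13-fold without KO replicate 3. Its change and that of Fosl2 could not be ranked. By log2 fold change, leaving out WT replicate 1 or KO replicate 1 turned their order. By fold of means, leaving out WT replicate 3 or KO replicate 2 turned it as well. Ier3 (chromosome 17, 35821684 to 35822923, plus strand) was at 35.6, 33.6 and 37.7 FPKM across WT libraries, against 17.8, 20.1 and 19.5 in KO. Its groups were well apart, with a 1.86-fold lower KO mean (log2 fold change -0.88, SE 0.0655, adjusted p = 9.35e-05).

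**Figure D3:**
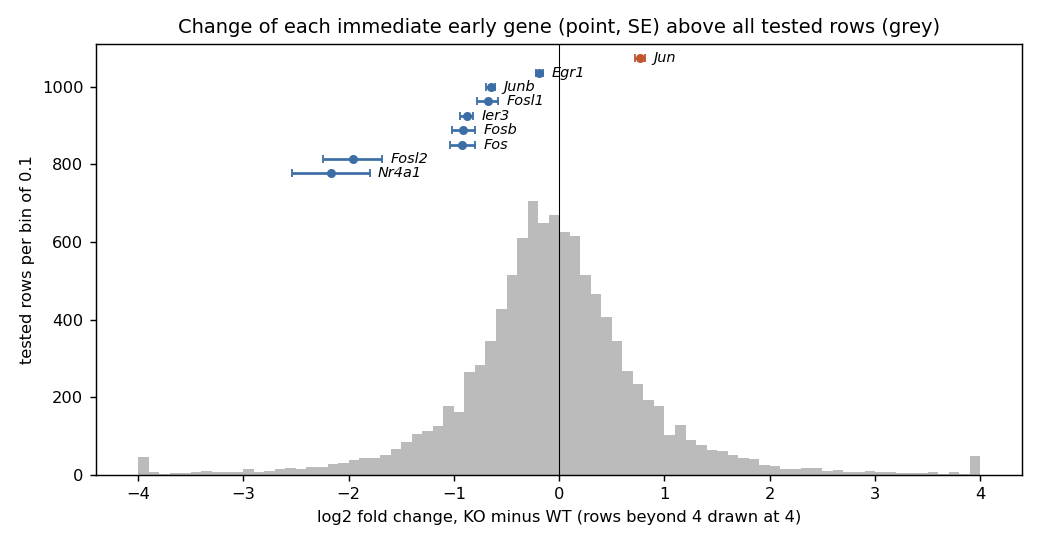
Log2 fold change (KO minus WT) of each immediate early gene, with SE bars, drawn above a histogram of all 10515 tested rows (vertical axis, rows per bin; the height of the points has no meaning). Nr4a1 and Fosl2 lie farthest left, Egr1 nearest to 0, and Jun alone lies to the right.

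In WT the order of mean levels was Fosl2 (218 FPKM), Nr4a1 (124.1), Fosl1 (85.6), Junb (59.2), Ier3 (35.6), Egr1 (28.5), Jun (16.2), Fos (1.91) and Fosb (1.47). Only Fos and Fosb, neighbours at the bottom, overlapped between WT libraries. In KO it was Fosl1 (53.1 FPKM), Fosl2 (53), Junb (37.7), Nr4a1 (30.1), Jun (27.9), Egr1 (24.8), Ier3 (19.1), Fos (0.77) and Fosb (0.549). Fosl1 and Fosl2 could not be ordered there, and the wide KO values of Nr4a1 spanned those of Junb, Jun, Egr1 and Ier3. Jun lay below Egr1 and Ier3 in every WT library and above both in every KO library.

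Spread between replicates set Fosl2 and Nr4a1 apart from the other members. Over 7206 tested rows of at least 5 FPKM with no library at 0, the highest replicate exceeded the lowest by a median factor of 1.1 in WT and 1.11 in KO. The factor for Fosl2 in WT was 2.18, and 98.9% of those rows had a smaller one, while its KO factor was 1.19. For Nr4a1 the KO factor was 2.8, with 99.5% of rows below it, and the WT factor was 1.08. Jun, Junb and Egr1 had factors of 1.02 to 1.09 in both groups, and Ier3 1.12 in WT and 1.13 in KO. Fos (1.35 in WT, 1.18 in KO), Fosb (1.23 and 1.17) and Fosl1 (1.29 and 1.1) were wider in WT than in KO. The library that stood out was not the same, WT replicate 2 for Fosl2 and KO replicate 3 for Nr4a1.

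The rows most like a member were those with the smallest mean absolute difference over the 6 libraries, on the log2 scale after taking off each row's own WT mean. For Nr4a1 these included Ptgs2 (0.107 log2 units), Tnc (0.149), 9930013L23Rik (0.198) and Per1 (0.22). Ptgs2, the inducible cyclooxygenase and itself an immediate early gene, was at 44.5, 46.6 and 54.9 FPKM across WT libraries, against 7.38, 8.71 and 16.0 in KO. Tnc, a matrix glycoprotein, was at 6.19, 7.91 and 10.4 FPKM in KO, and the clock gene Per1 at 5.83, 6.68 and 8.47. In each of these 4, as in Nr4a1, KO replicate 3 was the highest KO library and replicate 1 the lowest. The rows were picked for likeness over these same libraries, so that shared order can follow from the choice. A highest value in KO replicate 3 was not confined to the picked rows. It was also seen in the other immediate early genes called lower in KO (listed below), Gem excepted (3.41, 4.27 and 4.25 FPKM in KO). The excess could be small there, as in Plk2 (16.2, 17.7 and 18.5 FPKM) and Pim1 (10.6, 10.2 and 10.8). Its source was not tested. For Fosl2 the nearest rows were far less alike, at 0.207 (Nufip1), 0.221 (Cth) and 0.241 (Ptpn1), and none rose in WT replicate 2 to the same extent. The other members had rows within 0.00685 to 0.052 log2 units, a likeness that mostly follows the step between the groups: Leprel4 and Ccdc174 for Fos, Tmem68, Golga2 and Apmap for Fosb, and Tmed2, Ergic3 and the row shared by Arpc4 and Ttll3 for Fosl1. They were Tns3, Dip2a and Slk for Jun, Daxx, Ddx23 and Abcg2 for Junb, Nle1, Etfa and the row shared by Pdxp and Sh3bp1 for Egr1, and Rer1, Sf1 and Ythdf1 for Ier3.

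**Figure D4:**
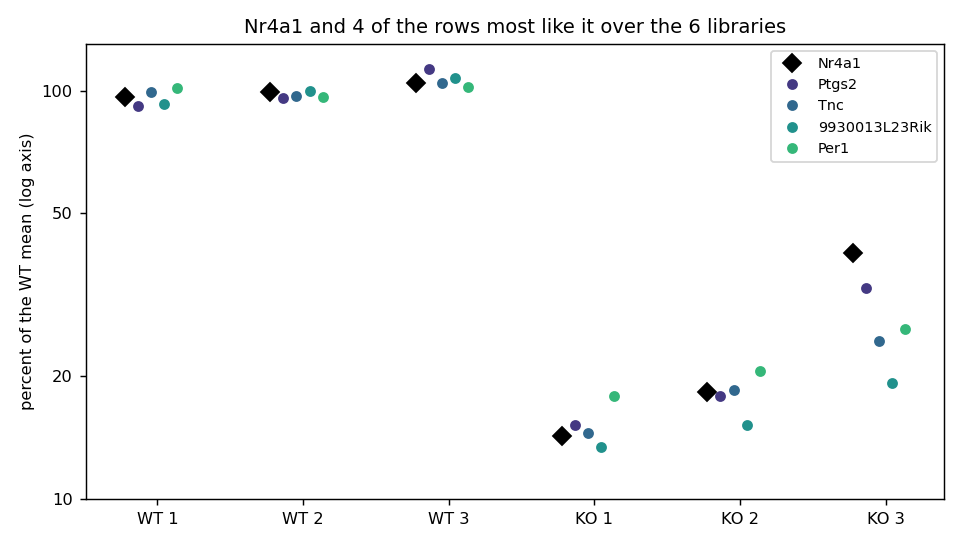
Level of Nr4a1 (black diamonds) and of 4 of the rows most like it (circles) in each library, as percent of each row's WT mean on a log axis. All 5 are highest in replicate 3 among the KO libraries, and Nr4a1 is the highest of them there. The 4 rows were picked for likeness over these same libraries.

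Other immediate early genes were mixed. Of 28 tested members of a list of 31, 12 fell, 5 rose and 11 did not pass (median log2 fold change -0.16). Over all tested rows 36.7% were called lower and 28.5% higher (median -0.07). The counts of this list and of those below are to be read beside these shares, and no list was tested as a set. The largest decreases were in Cyr61, a secreted matrix protein, at 192.6, 200.9 and 248.0 FPKM in WT and 3.23, 3.24 and 4.41 in KO (59-fold lower), and in Rgs2, which shortens G protein signals, at 59, 60.0 and 52.6 FPKM in WT and 1.72, 1.47 and 2.53 in KO (30-fold lower). The kinase gene Plk2 fell 4.68-fold, and Ctgf fell from 1.49, 5.45 and 2.46 FPKM to 0.149, 0.110 and 0.209, with WT replicate 2 the highest as for Fosl2. The 5 that rose were Ier5, Dusp1, Phlda1, Ier2 and Zfp36l2. Btg1 ranged from 57.7 to 189.6 FPKM in WT and from 89.4 to 290.1 in KO and did not pass (adjusted p = 0.167), nor did Errfi1, at 89.1 ± 6.47 and 80.7 ± 3.43 FPKM (SD, n = 3 libraries each, limma adjusted p = 0.105), whose fitted sign flipped under quantile normalization. Without WT replicate 1, Errfi1 passed as lower (log2 fold change -0.20, limma adjusted p = 0.0195).

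**Figure D5:**
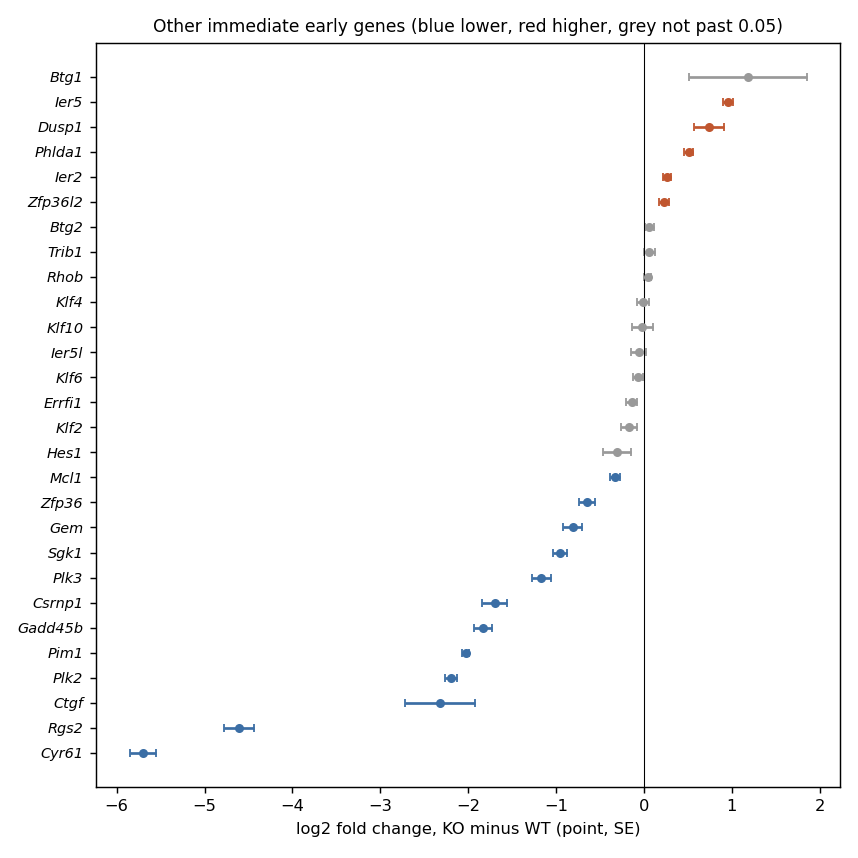
Log2 fold change (KO minus WT) with SE of 28 other immediate early genes, ordered by value. Cyr61 and Rgs2 lie farthest left, while 11 genes in grey did not pass the threshold.

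Genes listed as AP-1 partners outside the chosen set changed both ways: of 8 tested, 4 fell and 2 rose (median log2 fold change -0.35). Maf, a large activator, rose 3.18-fold from 14.1 ± 0.38 to 44.9 ± 1.38 FPKM (SD, n = 3), as did Jund. The small partner Mafk fell 2.12-fold and Batf3 fell 3.84-fold, from 1.84, 2.03 and 2.37 FPKM to 0.367, 0.681 and 0.579. Jdp2, which represses AP-1 sites, fell from 24.5, 28.5 and 22.6 to 13.4, 14.2 and 13.8 FPKM. Maff was at 22.6, 23.6 and 18.7 FPKM in WT and was listed at 0, 0 and 11.1 in KO (limma adjusted p = 0.0343). Jdp2 and Maff were named after their values were seen, to complete the count. Crem (2.13 ± 0.82 and 3.36 ± 0.66 FPKM) and Creb1 (5.86 ± 0.30 and 6.50 ± 0.34) did not pass by limma, with adjusted p = 0.0763 and 0.103. Crem passed as higher without WT replicate 3 (adjusted p = 0.0104) and Creb1 under median-ratio scaling (limma adjusted p = 0.0346). Atf3, a stress-induced partner, was below the filter at 0.786, 0.823 and 0.780 FPKM in WT and 0.0274, 0 and 0.0858 in KO.

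Among relatives of EGR1 and NR4A1 and the NAB corepressors, which bind EGR proteins, 2 of 4 tested genes rose and none fell (median log2 fold change 0.34). Egr2 rose 2.5-fold from 0.908, 0.979 and 0.783 FPKM to 2.02, 2.35 and 2.29 (adjusted p = 0.000364), the direction opposite to Egr1. Nab1 rose 1.35-fold (adjusted p = 0.0367), a call lost with no filter on low values and without WT replicate 2 or any 1 of the KO libraries (limma adjusted p from 0.0555 to 0.0871). Nr4a2 was at 2.13, 2.44 and 3.12 FPKM across WT libraries, against 2.58, 2.97 and 3.68 in KO (adjusted p = 0.271), overlapping groups, while Nr4a1 fell. Nr4a3 was below the filter, at 0.368, 0.283 and 0.447 FPKM in WT and 0.0405, 0.0224 and 0.0559 in KO. Nab2 was at 25.3 ± 0.97 and 25.8 ± 1.33 FPKM (limma adjusted p = 0.693), while quantile normalization made it pass as higher, at 0.16 (limma adjusted p = 0.0421).

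Upstream of these genes, Srf fell 2.05-fold, from 12.1, 12.5 and 13.2 FPKM to 5.85, 6.26 and 6.35 (adjusted p = 3.61e-05), while its ETS partners Elk4 and Elk3 rose 1.56-fold and 1.38-fold and the actin-regulated coactivator Mkl1 rose 1.51-fold. Mkl2 did not pass, at 5.26 ± 0.25 and 5.33 ± 0.24 FPKM (SD, n = 3, limma adjusted p = 0.805), so 3 of 5 tested genes of that list rose and 1 fell (median log2 fold change 0.46). Of 13 tested MAP kinase pathway genes 4 rose, 3 fell and 6 did not pass (median -0.06). The paired kinases that activate ERK moved oppositely: Map2k1 fell from 57.9, 59.4 and 60.1 FPKM to 22.8, 25.2 and 25.4, and Map2k2 rose from 24.0, 26.2 and 27.9 to 54.9, 54.1 and 56.0. The kinase genes Rps6ka1 and Rps6ka4, which act on SRF, CREB and chromatin, fell 1.95-fold and 1.9-fold. Mapk3, encoding ERK1, was at 152.2 ± 18.9 and 125.6 ± 14.8 FPKM and Mapk9, encoding JNK2, at 26.9 ± 1.96 and 23.4 ± 6.95 (limma adjusted p = 0.0989 and 0.376). Mapk3 passed as lower without WT replicate 3 (limma adjusted p = 0.0358).

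Of 7 tested genes for proteins that bind AU-rich elements, 4 fell and 2 rose (median log2 fold change -0.25). Hnrnpd, which encodes AUF1, rose 3.71-fold from 15.1, 15.7 and 21.0 FPKM to 70.4, 61.1 and 61.0. Tial1 fell 2.24-fold, Khsrp 1.33-fold and Zfp36, itself an immediate early gene, 1.59-fold from 20.7, 16.8 and 18 to 11.3, 10.9 and 12.6 FPKM. Tia1 was at 7.68 ± 0.84 and 7.02 ± 0.25 FPKM (limma adjusted p = 0.264).

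Known AP-1 target genes were divided, with 7 of 15 tested lower, 6 higher and 2 not past the threshold (median log2 fold change -0.41). Il6 fell 31.4-fold from 13.3, 13.8 and 11.9 FPKM to 0.434, 0.241 and 0.567. Among matrix proteases and inhibitors, Mmp3 fell 11.4-fold, Mmp10 11-fold from 1.94, 1.09 and 3.25 FPKM to 0.0641, 0.205 and 0.301, and Timp1 7.13-fold. In the same list Mmp13 rose from 0.286, 0.298 and 0.291 FPKM to 2.02, 1.98 and 2.46 and Mmp9 from 6.37, 5.61 and 6.70 to 25.2, 23.7 and 19.4. These 2 genes were named after their values were seen. The urokinase receptor gene Plaur was at 13.1, 11.7 and 12.5 FPKM in WT and 7.88, 7.07 and 11.8 in KO (adjusted p = 0.059), with KO replicate 3 the highest as for Nr4a1, and without that library it passed (limma adjusted p = 0.00134). The EGF receptor ligand gene Areg was at 1.38 ± 0.27 and 1.80 ± 0.07 FPKM (limma adjusted p = 0.0826).

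In the network of proteins around MYC, 4 of 7 tested genes fell and 1 rose (median log2 fold change -0.42). The obligate partner Max fell 1.48-fold from 27.0, 27.7 and 25.2 FPKM to 17.7, 17.7 and 18.5. Zbtb17, which encodes the cofactor MIZ1, fell 2.12-fold, Mnt 1.35-fold and Mlxip 1.26-fold. Mxd4, named after its values were seen as the 1 that rose, stood 1.17-fold higher. Mxi1 ranged from 16.3 to 37.0 FPKM in WT and from 11.5 to 26.8 in KO (adjusted p = 0.164), and Mga was at 8.47 ± 0.79 and 7.30 ± 0.28 FPKM (limma adjusted p = 0.0651). Mga passed as lower without WT replicate 1 (adjusted p = 0.0269) and Mxi1 without KO replicate 1 (limma adjusted p = 0.0448). Of 11 tested MYC target genes 7 rose and 2 fell (median 0.38). Polr1b, a subunit of RNA polymerase I, rose 2.52-fold, and Pa2g4 rose 1.57-fold from 41.7, 58.1 and 36.5 to 80.0, 73.1 and 60.3 FPKM, a call that ended when WT replicate 1, WT replicate 3, KO replicate 1 or KO replicate 2 was left out (limma adjusted p from 0.0676 to 0.0767). The 2 that fell were Ldha, lactate dehydrogenase A (3.27-fold), and the cyclin gene Ccnd2 (1.79-fold). Fbl (52.0 ± 6.44 and 54.3 ± 1.91 FPKM) and Rrs1 (16.0 ± 0.95 and 15.9 ± 1.1) did not pass by limma, with adjusted p = 0.547 and 0.897. Fbl passed as higher under quantile normalization (log2 fold change 0.27, limma adjusted p = 0.0438).

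Beside Ier3, whose protein acts in survival signalling by NF-kappaB and p53, 4 of 8 tested genes of those pathways fell and 3 rose (median log2 fold change -0.06). Bcl2l11, which encodes the death-promoting protein BIM, rose 3.46-fold from 4.81, 4.75 and 4.49 FPKM to 16.8, 15.6 and 16.1, and the NF-kappaB inhibitor gene Nfkbia rose 1.81-fold. The survival gene Bcl2l1 fell 1.42-fold and the phosphatase subunit gene Ppp2r5c 2.56-fold. Nfkb1 was at 23.1 ± 2.92 and 24.2 ± 2.02 FPKM (limma adjusted p = 0.578). Of 7 listed heat shock genes, read as a sign of handling stress, 4 had a row and only 3 could be tested. Of these 3, 2 fell and none rose (median -0.27): Hsph1 fell 1.43-fold, Dnajb1 1.21-fold, and Hsp90aa1 was at 155.7 ± 6.41 and 150.0 ± 7.42 FPKM (limma adjusted p = 0.398), with its fitted sign flipped under median-ratio scaling and under quantile normalization. Under quantile normalization Hsp90aa1 passed as higher (log2 fold change 0.16, limma adjusted p = 0.0498). Their part in the results was not tested.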

How the data were processed

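The authors deposited 1 table with a value per row and library, taken as FPKM by inference, since no header names the unit. Per the submitters' processing notes, TopHat 8.7 and Cufflinks 2.02 were used with build GRCm38. Aligner settings, annotation release and strand handling were not stated in the labels. Values were used as deposited. A row was tested where it averaged 0.5 FPKM or more, on log2(FPKM + 0.5) with limma 3.58.1 (R 4.3.3), with a mean-variance trend, two-sided, with Benjamini-Hochberg adjustment over all tested rows and a threshold of 0.05. The fit was tested on simulated data, but no outcome is reported here, so that test does not bear on the calls. Python 3.11.15, pandas 2.3.3, numpy 2.4.6 and matplotlib 3.10.9 were used for the rest.

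Depth was estimated from the lowest values of 1240 long genes (2500 bases or more) that have 1 annotated transcript, which pile up at the worth of 1 fragment. An exact 0 can be a failed estimate, so genes are said to be listed at 0. Gene positions and exon overlaps came from GENCODE M21. List genes in rows shared with another gene were left out of the counts.

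The members and lists were chosen with earlier results of these data known. Named genes were all members; in each list, up to 4 called genes with the largest change, separate groups and no library at 0, and up to 2 that did not pass, by level; and the rows most like each member, of which 2 are not reported here. The 5 rows with the widest KO replicates were named too. Alternatives were another pseudocount, filter, scaling, a robust fit, a replicate block and each library left out.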

Additional observations from a re-analysis of the deposited data

How the results depend on the processing

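Over 14 alternatives the 9 members gave 124 fitted values, of which 123 kept their direction and side of the threshold, and Fos and Fosb could not be tested at a filter of 2 FPKM. The exception was Egr1, at -0.06 (limma adjusted p = 0.23) with quantile normalization, and the cause was not tested. Nr4a1 ranged from -2.6 to -1.87 and Fosl2 from -2.21 to -1.65, the ends being set by leaving out 1 library. Fos ranged from -1.2 to -0.72 and Fosb from -1.27 to -0.67, the ends being set by the pseudocount. Same-numbered libraries did not deviate together over all rows (r from -0.093 to 0.012), so no general pairing by number was seen. An r over all rows can miss a pairing that touches only some of them. With a replicate block, 2846 rows were higher and 3688 lower in KO, against 2998 and 3862. In this balanced design the block leaves every fold change as it was (Nr4a1 at -2.17) and moves only the p (for Nr4a1 from 0.00291 to 0.00653 by limma). Crem (adjusted p = 0.0205) and Mapk3 (0.00458) passed with the block. Genes related to EGR1 and NR4A1 gave 1 call instead of 2 at the filter of 2 FPKM, where fewer genes are tested, and from 1 to 2 calls with 1 library left out. Of 807 values of other named genes, 774 stayed as they were, 9 lost and 11 gained a call without a change of sign. In 13 the sign changed, and none of these genes was called in the reported fit: Errfi1 to 0.10 under quantile normalization, Hsp90aa1 to 0.01 and 0.16 (the latter called, limma adjusted p = 0.0498) and Rrs1 to 0.05 and 0.10 under median-ratio scaling and quantile normalization. With 1 library left out, Rrs1 ranged from -0.06 to 0.05, Fbl from -0.02 to 0.16, Mkl2 from -0.02 to 0.04, Nab2 from -0.002 to 0.07 and Nfkb1 from -0.03 to 0.14. Fos and Fosb rest on few fragments, which limits their precision.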

Other observations

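Among tested rows of at least 5 FPKM with no library at 0, the widest KO replicates belonged to 3110007F17Rik (1.06, 0.936 and 26.9 FPKM), Gm2004 (27.1, 3.25 and 22.1), AC015535.1 (27.3, 4.76 and 14.0), Ccdc127 (34.5, 37.3 and 6.56) and Rad51l1 (2.87, 1.37 and 7.35). None is an immediate early gene, and the library that stands out differs among them. Arc, an immediate early gene of neurons named after its values were seen, was below the filter at 0.269, 0.156 and 0.238 FPKM across WT libraries, against 0.0692, 0 and 0.0181 in KO.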
